A study of Mus musculus with 2 samples.

Results

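The 9 miRNA genes described here each lie inside a protein-coding gene with a neuronal or receptor role, on the same strand. They were chosen by symbol in the GENCODE M21 annotation (Mir326, Mir346, Mir592, Mir488, Mir153, Mir708, Mir504, Mir342 and Mir3547), and they are 9 of the 2202 miRNA genes in the deposited tables. Each symbol matched 1 gene. The samples were hippocampus tissue of adult wild-type C57BL/6 mice (strain B6NCrl) aged 6 months, from which small RNA was sequenced in 2 libraries, numbered in the labels as biological replicates 1 and 2 of 1 group. The tissue field reads as a layer of the hippocampus without naming the layer, the descriptions call the animals male while the sex field is marked as not collected, and no treatment, transgene or control group is named. The source is given as MODEL-AD and the library size range as below 30, with no unit. Both libraries carry 1 donor identifier, and nothing in the labels says that they came from separate animals. A difference between them may therefore be technical. Most p-values below set that difference against counting error only, and none of them measures a spread between animals. There is no comparison between conditions: the design gives the level of each gene and the difference between the libraries.

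An intronic miRNA is carried within the intron of another gene, its host, and is usually transcribed as part of the host's primary transcript. The microprocessor enzyme Drosha normally cuts the hairpin out of the intron, and Dicer then releases a mature strand from either arm, whose bases 2 to 8, the seed, select the messenger RNAs to be repressed. A mirtron is an exception, in which the spliced intron itself is the hairpin and Drosha is not needed. Intronic miRNAs can follow the activity of their host, so those in synaptic genes are often made in neurons. Host messenger RNA is not measured in these libraries, so nothing below is a level of a host gene.

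The sequences show what the 9 genes share and do not share. RefSeq (GRCm38.p6, which is mm10) lists 17 mature arms for the 9 genes, all 9 of which matched by position and strand. No seed was common to any pair of the 9 genes. Arms of 4 of the 9 genes share their seed with a miRNA elsewhere in the genome, and miR-326-3p and miR-708-5p are printed with their partner because that partner was detected. The rest were picked, after their base composition was seen, to show the GC-rich and AU-rich ends of the group and the gene with the highest level. Sequences run 5′ to 3′ and the seed is in capitals. The counts do not separate the arms of a hairpin, so they do not say which arm was read.
miR-326-3p (Mir326): cCUCUGGGcccuuccuccagu
miR-330-5p (Mir330): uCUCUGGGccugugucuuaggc
miR-708-5p (Mir708): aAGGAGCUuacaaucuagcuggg
miR-28a-5p (Mir28a): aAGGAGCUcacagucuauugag
miR-346-5p (Mir346): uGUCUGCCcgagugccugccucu
miR-346-3p (Mir346): aGGCAGGGgcugggccugcagc
miR-3547-5p (Mir3547): gUGGGAAGagggguggggcccggga
miR-3547-3p (Mir3547): uGAGCACCaccccucucucag
miR-592-5p (Mir592): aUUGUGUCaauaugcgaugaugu
miR-153-3p (Mir153): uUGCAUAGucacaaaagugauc
miR-342-3p (Mir342): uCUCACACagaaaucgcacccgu

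The GC content of the printed arms ran from 34.8% for miR-592-5p and 36.4% for miR-153-3p to 76% for miR-3547-5p and 77.3% for miR-346-3p. Over whole hairpins it ran from 42.03% in Mir153 to 65.3% in Mir346. Hairpins of 8 of the 9 genes shared no stretch of 20 bases with another annotated hairpin, whereas 1087 of all 2202 genes did. The exception was Mir708, which shared such a stretch with Gm23134, a predicted miRNA gene inside Blcap that had 1 count in each library.

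The position of the hairpins inside their hosts differed widely (mm10). Mir326 (ENSMUSG00000065571.1, chromosome 7, 99552269 to 99552363) lies in intron 1 of 15 of Arrb1, the gene for the adaptor that switches off activated G-protein-coupled receptors. Mir346 (ENSMUSG00000065481.1, chromosome 14, 34894609 to 34894706) lies in intron 2 of 15 of Grid1, a delta-type glutamate receptor subunit that organises synapses. Mir592 (ENSMUSG00000076067.1, chromosome 6, 27936655 to 27936750) lies in intron 3 of 10 of Grm8, a presynaptic metabotropic glutamate receptor. It also overlaps an exon of 1 of the 7 annotated Grm8 transcripts, a noncoding one, while the other 8 genes overlap no exon of any transcript of their host.

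Mir708 (ENSMUSG00000076143.1, chromosome 7, 96249424 to 96249532) lies in intron 1 of 32 of Tenm4, a teneurin, a family of adhesion proteins on neuronal surfaces. Mir488 (ENSMUSG00000070103.2, chromosome 1, 158505625 to 158505733) lies in intron 5 of 22 of Astn1, an adhesion protein of neurons migrating along glia, only 155 bases from the exon before it. Mir342 (ENSMUSG00000065436.1, chromosome 12, 108658620 to 108658718) lies in intron 3 of 13 of Evl, a regulator of actin filament growth that is not restricted to neurons and is also expressed in immune cells. Mir504 (ENSMUSG00000070110.2, chromosome X, 59097658 to 59097736) lies in intron 3 of 4 of Fgf13, an intracellular member of the fibroblast growth factor family that binds voltage-gated sodium channels. Mir153 (ENSMUSG00000065538.1, chromosome 12, 117250817 to 117250885) lies in intron 19 of 22 of Ptprn2, a membrane protein of dense-core vesicles. Annotated genes lie on the opposite strand at Mir488 (Gm37679) and Mir153 (Gm5441), and both miRNA genes had 0 opposite-strand counts.

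Mir3547 (ENSMUSG00000093202.2, chromosome 17, 25245551 to 25245638) stood apart from the others by position. Its hairpin is the whole of intron 25 of 33 of Baiap3, a relative of the Munc13 proteins that takes part in dense-core vesicle traffic. The intron and the hairpin have the same first and last base and are 88 bases long. The hairpin is printed because it shows this arrangement, with the first and last 2 bases of the intron in capitals:
Mir3547 hairpin, chr17:25245551-25245638, minus strand: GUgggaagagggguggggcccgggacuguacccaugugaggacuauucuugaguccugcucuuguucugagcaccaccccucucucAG

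In the other 8 genes the hairpin took up between 0.0439% (Mir592) and 2.49% (Mir488) of its intron, and the introns were 4.38 kb (Astn1) to 219 kb (Grm8) long. Of the 9 hosts, 6 are longer than 300 kb, from Grm8 (860.06 kb) and Ptprn2 (791 kb) down to Astn1 (329.5 kb), and Baiap3 is the shortest at 13.7 kb. Mir346 and Mir708 lie within the first 10.6% of their hosts, and Mir153 and Mir504 lie 96.7% and 92.97% of the way along.

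**Figure D1:**
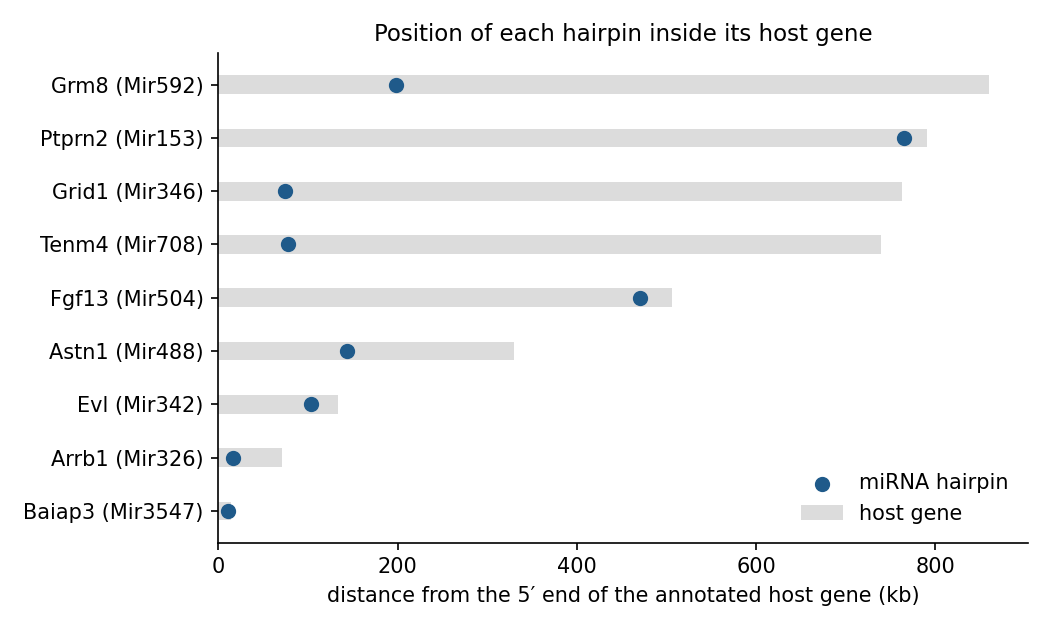
Each bar is the annotated host gene drawn to scale from its 5′ end (x axis, kb; host with its miRNA gene in brackets), and each point is the hairpin. Mir346, Mir708 and Mir592 lie towards the 5′ end of long hosts, Mir153 and Mir504 near the 3′ end, and the Baiap3 bar of 13.7 kb is hardly longer than its point.

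The libraries were of similar depth. Replicate 1 held 4247092 counts on miRNA genes and replicate 2 held 5041568, and a count of 0 would allow up to 0.706 and 0.595 CPM (CPM is the count divided by all counts on miRNA genes and scaled to 1000000; the limit is 3 counts and covers counting error only). The tissue label was checked on neuron-enriched miRNA genes, of which 13 of 18 reached 10 CPM in both libraries. Such a list cannot tell the hippocampus from other brain tissue. Their summed levels were 209761 and 188098 CPM in replicates 1 and 2, most of it Mir139. Next came Mir132 (23338 CPM in the mean), then Mir128-1, Mir138-1, Mir138-2, Mir129-2, Mir137, Mir128-2, Mir212, Mir129-1, Mir218-2 and, at 117 CPM, Mir9-1. The Mir124a genes of that list and Mir9-2 (2.35 and 1.59 CPM) were under 10 CPM, and Mir9-3 passed it only in replicate 2 (7.53 and 51.0 CPM). Reads aligned to several places (43.8% and 45.7% of all reads) are in no gene's count.

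All 9 genes were detected, meaning 10 CPM or more in both libraries, which 13.7% of the 2202 annotated genes reached. Of those 2202, 1403 had 0 counts in both libraries. The 9 genes were chosen with earlier results of these data known, so their detection beside that share is a description and not a test. The levels of the 9 genes ran from 4865 ± 32.6 CPM (SD, n = 2) for Mir342 to 17.8 ± 10.1 CPM for Mir592, a range that covered most of the detected genes. Their sum was 7221 CPM in replicate 1 and 8064 in replicate 2, or 0.722% and 0.806% of the counted reads. Mir342 alone made up 67.7% and 60.05% of that sum. The median mean level was 267 CPM over the 9 genes, beside 254.6 CPM over all 302 detected genes.

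**Figure D2:**
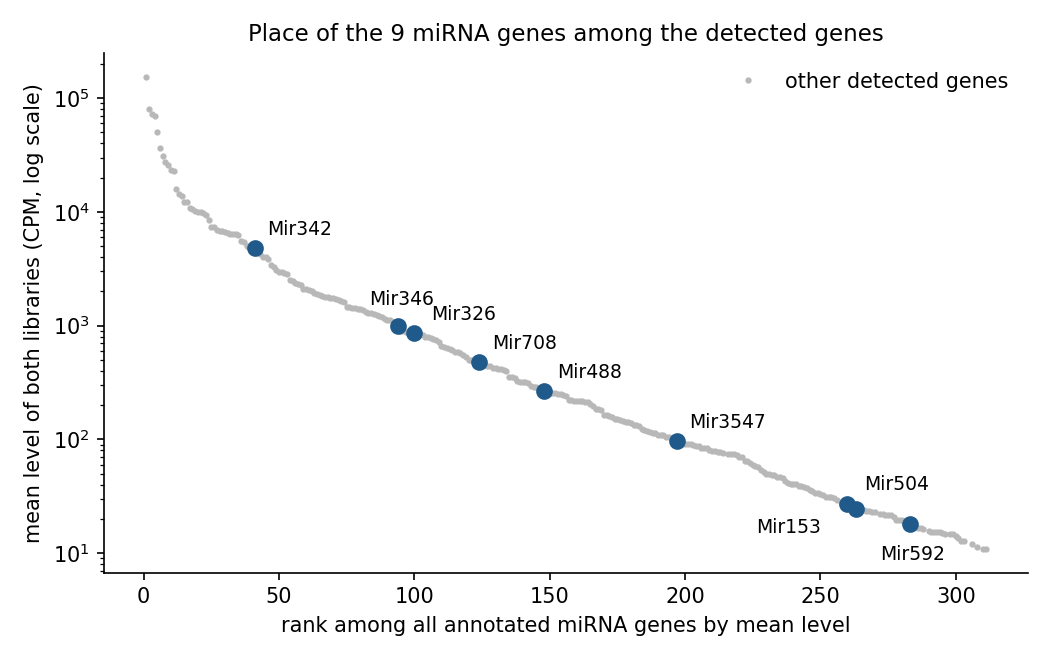
Mean level of both libraries (y axis, CPM, log scale) against rank among all annotated miRNA genes, for the 302 detected genes. The 9 genes (large points) are spread along the curve, from Mir342 at rank 41 to Mir592 at rank 283.

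The genes inside receptor and receptor-adaptor genes came next in level or last. Mir346, in the glutamate receptor gene Grid1, had 3118 counts in replicate 1 and 6342 in replicate 2, or 734 and 1258 CPM. Mir326, in the arrestin gene Arrb1, had 2894 and 5314 counts, or 681 and 1054 CPM. Both genes were higher in replicate 2, and Mir346 stood above Mir326 in each library, although their ranges over the libraries overlap. Mir346 differed by a log2 ratio (replicate 2 over replicate 1) of 0.78, with an exact 95% interval of 0.71 to 0.84. Mir326 differed by 0.63 (0.56 to 0.70). Mir592, in the metabotropic receptor gene Grm8, went the other way and was the lowest of the 9 genes in the mean. It had 106 counts in replicate 1 and 54 in replicate 2, or 24.96 and 10.7 CPM, a log2 ratio of −1.21 (−1.72 to −0.73), and it passed 10 CPM in replicate 2 by less than 1 CPM.

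The genes inside adhesion and migration genes stood in the middle. Mir708, in Tenm4, is known as a miRNA induced together with its host under stress of the endoplasmic reticulum. It had 534 CPM in replicate 1 and 426 CPM in replicate 2, a log2 ratio of −0.33 (−0.41 to −0.24). Mir488, in Astn1, had 290 and 244 CPM, a log2 ratio of −0.25 (−0.37 to −0.14). Both were a little lower in replicate 2 and differed by 1.25-fold and 1.19-fold. Their ranges overlapped neither with each other nor with those of Mir326 above and Mir3547 below.

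Mir342, in the actin regulator gene Evl, was the highest of the 9 genes and, scaled by counts on miRNA genes, the closest match between the libraries. Scaled by all reads in the tables, Mir153 was closer. Mir342 had 20760 counts in replicate 1 and 24411 in replicate 2, or 4888 and 4842 CPM, at rank 40 and rank 39 of all genes. The log2 ratio was −0.01, with an exact interval of −0.04 to 0.01. Its mean was 4.88 times that of Mir346, the next gene, and their ranges did not overlap.

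Mir504, in the channel-binding gene Fgf13, had 78 counts in replicate 1 and 154 in replicate 2, or 18.4 and 30.5 CPM, and was higher in replicate 2 by a log2 ratio of 0.73 (0.33 to 1.15). The vesicle genes Ptprn2 and Baiap3 hold the most alike and the least alike of the lower genes. Mir153, in Ptprn2, a miRNA known to repress the alpha-synuclein messenger RNA, had 116 and 134 counts, or 27.3 and 26.6 CPM. Its log2 ratio was −0.04 with a wide interval of −0.41 to 0.33, since the counts are few. Mir3547, in Baiap3, had 96 counts in replicate 1 and 868 in replicate 2, or 22.6 and 172 CPM.

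In replicate 1, Mir3547 was thus the 8th of the 9 genes, near Mir592 and Mir153, and in replicate 2 it was the 6th, well above them. The 4 lowest genes by mean (Mir3547, Mir153, Mir504 and Mir592) overlapped with their neighbours in that order, so their order among themselves is within the spread between libraries. The 5 genes above them kept the same order in each library. Levels were not divided by length, and dividing the mean level by hairpin length left all 9 places as they were.

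**Figure D3:**
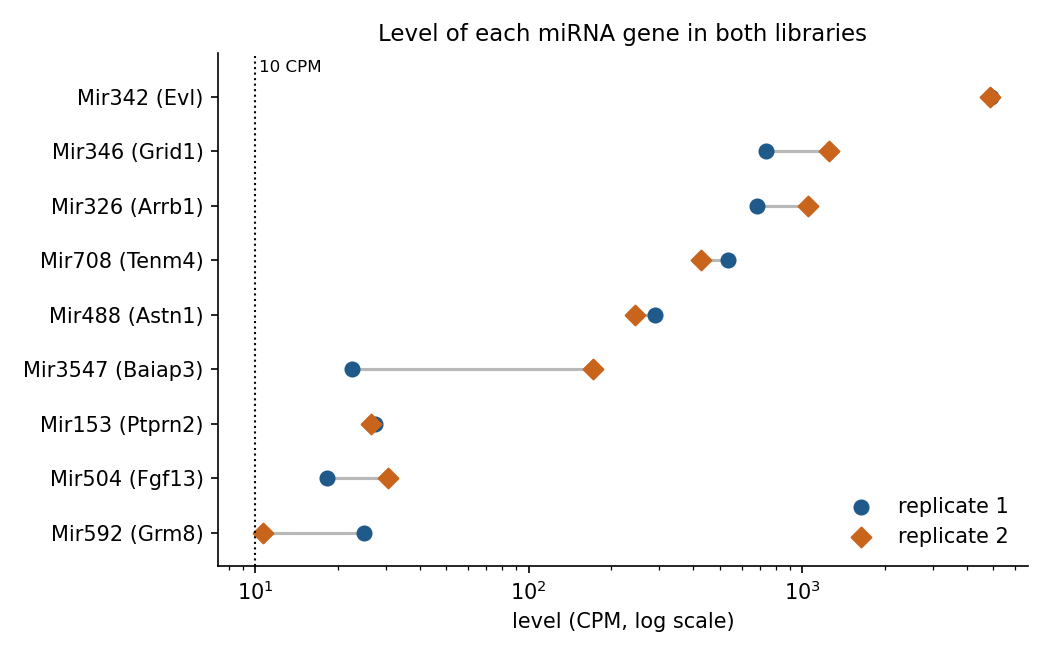
Level in CPM (x axis, log scale) of each miRNA gene with its host in brackets, in replicate 1 (circles) and replicate 2 (diamonds); the dotted line marks 10 CPM. The 2 points of Mir342 and of Mir153 nearly coincide, while those of Mir3547 lie at 22.6 and 172 CPM.

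The differences between the libraries were then tested over the whole table with an exact two-sided binomial test, which asks whether counts differ beyond counting error, with Benjamini-Hochberg adjustment over 522 tested genes. Of the 9 genes, 7 passed at an adjusted p of 0.05, where 51.0% of all tested genes did. Higher in replicate 2 were 4 (Mir3547, Mir346, Mir326 and Mir504), where 28.2% of tested genes were. Lower were 3 (Mir592, Mir708 and Mir488), where 22.8% of tested genes were. The split over all tested genes, 147 higher and 119 lower, turned round to 123 and 135 with TMM, 122 and 135 with DESeq2 size factors and 121 and 132 with the linear GC term. All 9 are detected genes, and among the 302 detected genes 226 (74.8%) passed, so a share of 7 in 9 (77.8%) is near the background. Of those 302 genes, 124 passed as higher and 102 as lower in replicate 2, which is the like base for the 4 and the 3.

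The exact binomial adjusted p was 4.47e-128 for Mir3547, 1.52e-139 for Mir346, 2.27e-81 for Mir326 and 0.000557 for Mir504. It was 8.31e-07 for Mir592, 2.44e-13 for Mir708 and 4.22e-05 for Mir488. By the same exact test Mir153 (adjusted p = 0.925) and Mir342 (adjusted p = 0.432) did not pass. Mir342 passed when the libraries were scaled by TMM or by DESeq2 size factors (log2 ratio −0.09 in both), and it turned to 0.049 and passed when scaled by all reads in the tables, so its direction depends on the scaling. Mir153 also turned, to 0.022, when scaled by all reads, without passing. When the typical spread between the libraries was allowed for, with the edgeR exact test and a common biological coefficient of variation of 0.328, only Mir3547 of the 9 passed (adjusted p = 0.0105, 6 of 522 genes in all), and the other 8 had an adjusted p of 1. Over the 6 alternatives run for Mir3547 its log2 ratio stayed between 2.72 and 2.98 and its adjusted p between 1.20e-134 and 0.0105.

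In size, 1 of the 302 detected genes had a larger difference between the libraries, in either direction, than Mir3547 with its log2 ratio of 2.92 (2.62 to 3.25). For Mir592, 18 genes had a larger one, and for Mir342, 293. More than 2-fold apart were Mir3547 and Mir592, 2 of the 9 genes, beside 28 of the 302 detected genes (9.27%). Within 1.5-fold were 4 of the 9 genes, beside 69.9% of the detected genes. The median log2 ratio was −0.01 over the 9 genes and 0.05 over the detected genes, and the median size of the ratio was 0.63 and 0.36.

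**Figure D4:**
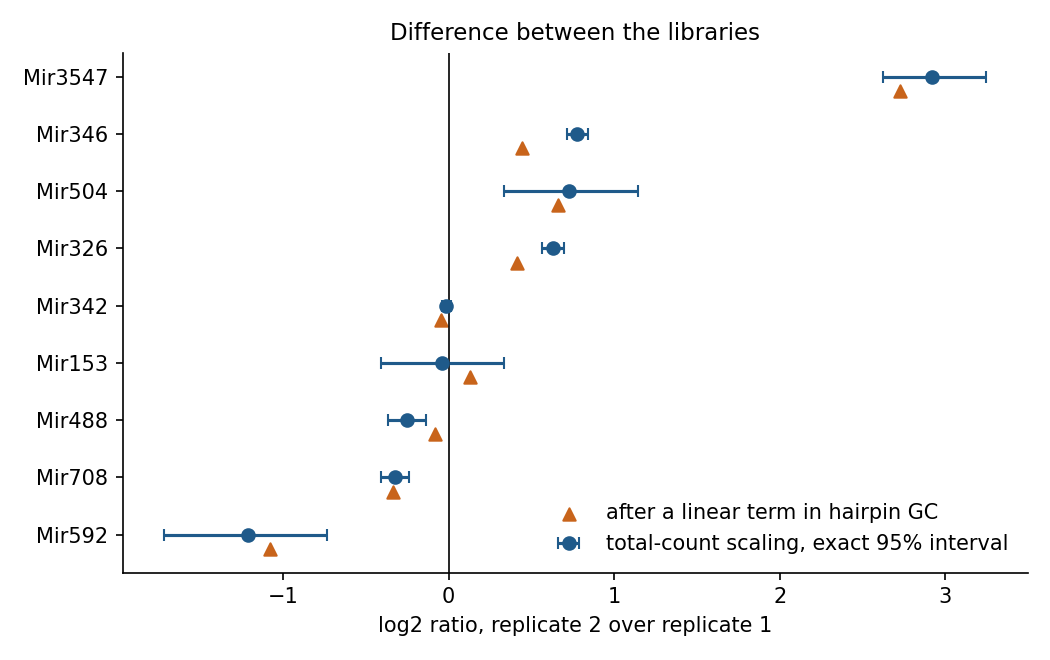
Log2 ratio of replicate 2 over replicate 1 (x axis) for each gene, with its exact 95% interval (circles and bars), and the same ratio after a linear term in hairpin GC content (triangles). Mir3547 stands at 2.92 and Mir592 at −1.21, and under the GC term Mir153 moves to the other side of 0.

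Base composition moved with these differences, and its part in them was not tested beyond the values given here. The detected genes were ranked by hairpin GC content and split into 3 bins of 101, 100 and 101 genes. In the bin with the highest GC content (54.8% or more) were Mir346, Mir326 and Mir3547, all higher in replicate 2, as were 74 of its 101 genes. In the bin with the lowest (46.5% or less) were Mir592 and Mir488, lower in replicate 2, and Mir153, with a log2 ratio of −0.04. Of the 101 genes in that bin, 40 were higher in replicate 2. Mir504 (log2 ratio 0.73), Mir342 (−0.01) and Mir708 (−0.33) lie in the middle bin, where 49 of 100 genes were higher. Across the 302 detected genes the log2 ratio and hairpin GC content had Pearson's r = 0.29 and Spearman's rho = 0.31, and r = 0.27 over the 293 without the 9 genes. These are correlations across genes of the same 2 libraries, and genes are not independent replicates. The median log2 ratio was −0.15 in the lowest bin, −0.02 in the middle and 0.27 in the highest.

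With a linear term in hairpin GC content, an alternative added after this was seen, the log2 ratio of Mir346 became 0.44, that of Mir326 0.41 and that of Mir3547 2.72. Mir488 no longer passed (−0.08, adjusted p = 0.244 by the exact binomial test), while Mir342 did (−0.05, adjusted p = 0.00115), so the count of genes that passed was again 7. Over all 6 alternatives the adjusted p ran from 6.15e-08 to 1 for Mir488 and from 1.83e-10 to 1 for Mir342. The labels cite version 5 of an adapter-trimming protocol for replicate 1 and version 6 for replicate 2. With 1 library each, the protocol version and the library cannot be told apart.

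**Figure D5:**
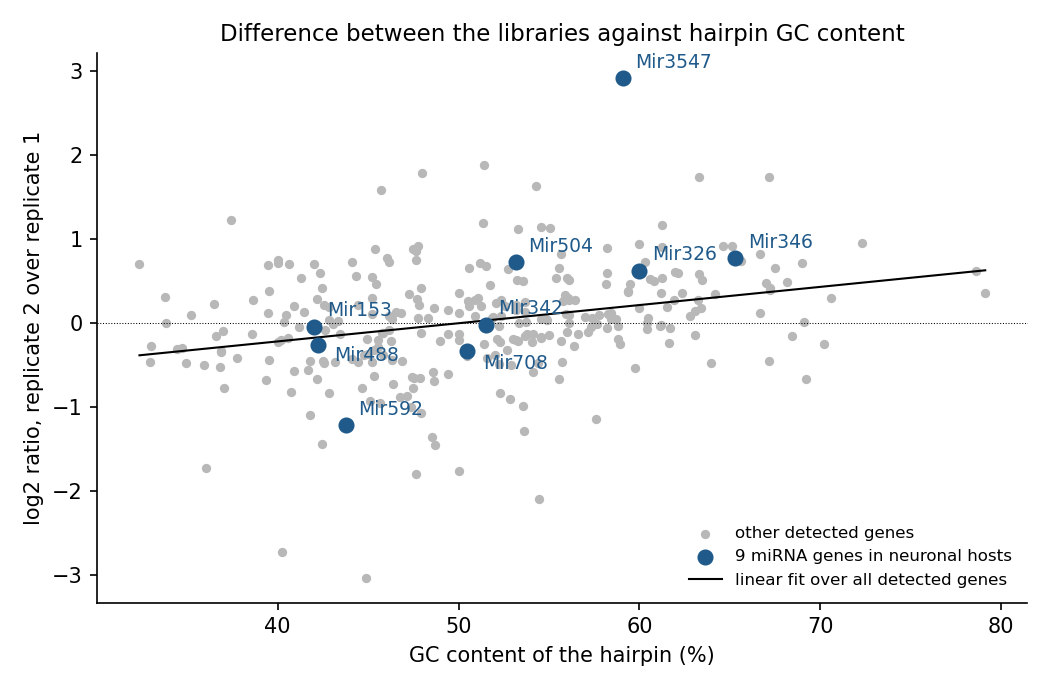
Log2 ratio of replicate 2 over replicate 1 (y axis) against GC content of the hairpin (x axis, %) for all 302 detected genes, with the 9 genes named and the linear fit as a line. Mir346 and Mir326 lie in the bin with the highest GC content and above 0, Mir592 and Mir488 in the bin with the lowest and below 0, and Mir3547 lies far above the line.

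Other hairpins that fill an intron were looked at beside Mir3547, as a list made after its position was seen. The hairpins of 22 genes in the tables, Mir3547 included, match an intron of a host gene to within 5 bases at both ends. Of these, 8 were detected and 12 had enough counts to test. The exact test called 8 of the 12 (66.7%), 7 as higher in replicate 2, among them Gm24589 at under 10 CPM, and 1 as lower, Mir1981. Of all tested genes it called 51.0%, 28.2% as higher and 22.8% as lower. Of the 302 detected genes it called 226 (74.8%), 124 as higher and 102 as lower. Beside these, all of the 8 detected genes of the list but Mir1982 were called. Without Mir3547 the test called 7 of 11 genes, 6 as higher. The 7 detected genes other than Mir3547 had log2 ratios from −0.15 (Mir1981) to 0.95 (Mir1224), with a median of 0.47, and none of them was more than 2-fold apart. Their median hairpin GC content was 61.2%, beside 51.4% over all detected genes.

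Seed partners of the 9 genes were mostly low. Mir330, in Eml2 on chromosome 7, has an arm with the seed of miR-326-3p and stood at 9930 ± 2248 CPM (SD, n = 2), far above Mir326 at 868 ± 263 CPM. Like Mir326 it was higher in replicate 2, with a log2 ratio of 0.47. Mir28a, in Lpp on chromosome 16, has an arm with the seed of miR-708-5p and stood at 256.5 ± 34.4 CPM, below Mir708 at 480 ± 76.3 CPM. Its log2 ratio was 0.27, opposite in sign to that of Mir708. The partner of miR-346-3p, Mir7001, had 1 count in each library, and the 3 partners of miR-3547-5p (Mir6404, Mir6368 and Mir6405) had 0 counts. For the other arms, none of the 1022 genes with a listed arm shared the seed.

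A list of 50 other host genes, picked for neuronal roles but not all particular to neurons, gives 32 further miRNA genes on the strand of their host. Of these, 18 were detected, and 18 of 23 tested genes passed the exact test, 6 as higher and 12 as lower in replicate 2. That is 78.3% of them, above the 51.0% among all tested genes. Some of the 23 are under 10 CPM, so the 74.8% among detected genes can be set only beside the 18 detected ones. Of those 18, all but Mir764 and Mir6769b passed. Their median log2 ratio was −0.08, beside −0.01 for the 9 genes. The highest were Mir139 in Pde2a (154950 ± 2333 CPM), Mir149 in the glypican gene Gpc1 (12143 ± 2872 CPM), Mir128-1 in R3hdm1 (6433 ± 393 CPM) and Mir598 in Xkr6 (5606 ± 615 CPM). Mir342, the highest of the 9 genes, was below each of these in the mean. None of the 9 genes belonged to any of the lists of cell type markers. Of the other-host list, Mir204 (Trpm3) is also a choroid plexus marker and Mir338 (Aatk) an oligodendrocyte marker, while others, such as Mir139, are neuron-enriched markers. The 3 detected genes of the other-host list that were more than 2-fold apart were all lower in replicate 2. They were Mir204 (log2 ratio −1.35) and, in Htr2c, Mir1298 (−3.03) and Mir1264 (−1.72). The other detected genes in Htr2c were closer between the libraries, Mir448 at −0.32 and Mir764 at 0.05.

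Markers of other cells were summed in the same libraries. Choroid plexus and ependyma markers (4 of 7 detected) had summed levels of 9225 and 3149 CPM in replicates 1 and 2, led by Mir204 and Mir34c. These 2 genes and Mir34b were lower in replicate 2, whereas Mir449a was higher (17.7 and 27.97 CPM), and Mir449b was at 0 in both. The pituitary and hypothalamus list (3 of 3 detected: Mir7b, Mir375 and Mir7-2) stood at 2703 and 2055 CPM. The oligodendrocyte list (2 of 4 detected: Mir219a-2 and Mir338) stood at 5817 and 8786 CPM, with Mir219b at 0 in both. The microglia and leukocyte list (3 of 6 detected, led by Mir150 and Mir146) stood at 2926 and 2627 CPM. Mir592, Mir708 and Mir488 were lower in replicate 2, as were the sums of the choroid plexus, pituitary, microglia and neuron-enriched lists. Mir3547, Mir346, Mir326 and Mir504 were higher, as was the sum of the oligodendrocyte list. Single genes weigh on these sums. The neuron-enriched sum was moved most by Mir132 (32072 and 14605 CPM), while 5 genes of that list were called higher and 7 lower. Its detected genes had a median log2 ratio of −0.03. In the pituitary list Mir7-2 was higher in replicate 2 (log2 ratio 0.27), while Mir7b and Mir375 were lower. The part of these cells in the differences was not tested, and in bulk tissue fewer cells of a type and less RNA per cell cannot be told apart.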

How the data were processed

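Small RNA was measured in 2 hippocampus libraries of 1 group. The deposited values are raw read counts per miRNA gene, placed on mm10 with GENCODE release M21 per the file headers. No label or header names the aligner or the counting program. Sense-strand counts were taken (that column was identified from its sums). Rows that name no gene (reads unaligned, aligned to several places or outside miRNA genes) held 61.8% of reads in replicate 1 and 60.1% in replicate 2 and were left out of library sizes. CPM is the count divided by all counts on miRNA genes, scaled to 1000000. Each gene with at least 10 counts over both libraries was tested with an exact binomial test of the replicate 2 count, adjusted over all tested genes (threshold 0.05). The test was run because 1 group of 2 libraries allows no quasi-likelihood fit. It was tried on data simulated with counting error only, which cannot show how it behaves under the spread between these libraries. Log2 ratios have 0.5 counts added. Exact 95% intervals (Clopper-Pearson) cover counting error only.

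Alternatives covered scaling (TMM of edgeR, DESeq2 size factors, all reads), strand, count and CPM minimums, 1 count added, the edgeR exact test with a common dispersion from both libraries taken as 1 group, each library alone, and a GC term added later. Hosts and introns came from M21, introns from the longest principal transcript spanning the hairpin, and mature arms from RefSeq (GRCm38.p6). All 9 members are named, with detected seed partners (up to 3 each), the 4 highest genes of the other-host list, and marker genes at 100 CPM or more in either library. Outside this rule, and named with their values known, are Mir7001, Mir6404, Mir6368, Mir6405, Gm23134, Gm24589, Mir1981, Mir1224, Mir449a, Mir449b, Mir219b and the Mir124a genes. So are Mir1298, Mir1264, Mir448, Mir764, Mir6769b, Mir1982, Mir9-2 and Mir9-3. The members and lists were chosen with earlier results of these data known. Python 3.11.15, numpy 2.4.6, pandas 2.3.3, scipy 1.17.1, matplotlib 3.10.9, R 4.3.3, edgeR 4.0.16 and DESeq2 1.42.0 were used.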

Additional observations from a re-analysis of the deposited data

Results flagged for a closer look

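Mir708 had 10 counts on the strand opposite its hairpin in replicate 1 and 7 in replicate 2, above the 3 counts that a count of 0 would allow. It was picked out because the comparisons do not use the opposite-strand column. The other 8 miRNA genes had 0 such counts in both libraries. No annotated gene of another type lies on the opposite strand there, and whether a miRNA gene does was not looked at. The counts are few beside the 2268 and 2148 on the strand of the gene.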

How the results depend on the processing

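With the edgeR exact test and a common dispersion, 1 of the 9 genes (Mir3547) and 6 of all 522 tested genes passed, instead of 7 and 266, since that test counts the spread between the libraries as error. At 100 CPM in both libraries 5 of the 9 genes were detected, instead of 9. With CPM taken over all reads in the tables the summed level was 2990 CPM instead of 7642, because the denominator then holds reads outside miRNA genes. Scaled by all reads, the log2 ratio of Mir342 turned to 0.049 and that of Mir153 to 0.022, and with the GC term that of Mir153 turned to 0.13. Leaving out either library kept all 9 genes detected and gave summed levels of 7221 to 8064 CPM, and it leaves no test between libraries. No paired analysis was possible because there is only 1 group. Low counts limit Mir153, Mir504 and Mir592 most.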
